A study of Mus musculus with 16 samples.

Results

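The nuclear genes of the mitochondrial respiratory chain and ATP synthase were followed in the livers of mice with and without human CYP2B6 on a high-fat diet. They were taken from the count table by symbol, as every row beginning with Ndufa, Ndufb, Ndufc, Ndufs, Ndufv, Uqcr, Cox4 to Cox8 or Atp5, together with Sdha, Sdhb, Sdhc and Sdhd, leaving out 7 pseudogene rows whose symbol holds "ps". This gave 92 of the 41585 rows of the table. They comprised 36 rows for complex I, 7 for its assembly factors, 2 for the Ndufa4 proteins, 4 for complex II, 8 for complex III, 17 for complex IV, 1 for the supercomplex factor Cox7a2l, 15 for complex V, and Atp5s and Atp5sl, which carry an ATP synthase name but are not subunits. Of these, 81 passed the filter on low counts and were tested, and 11 did not.

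The respiratory chain sits in the inner mitochondrial membrane, where complexes I and II pass electrons from NADH and succinate to ubiquinone, complex III passes them on to cytochrome c, and complex IV reduces oxygen. Complexes I, III and IV pump protons, and complex V, the ATP synthase, uses the return flow to make ATP. Most subunits are encoded in the nucleus, a core set is encoded in mitochondrial DNA, and liver uses this machinery to burn the fatty acids and amino acids that feed gluconeogenesis and ureagenesis.

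Liver RNA was sequenced in 4 groups of 4 libraries, all from C57BL/6 mice given a diet of 60% fat for 16 weeks. The groups were hCYP2B6-Tg females (libraries numbered 1, 2, 4 and 5), Cyp2b-null females (1, 3, 4 and 5), hCYP2B6-Tg males (2 to 5) and Cyp2b-null males (1 to 4). The Cyp2b-null strain is named for a lack of mouse Cyp2b genes and serves as the comparison for the strain that carries the human gene. The transgene's promoter, the mice's age and any group on an ordinary diet are not given in the labels, so what the diet did cannot be read from these groups. Per-library values below follow the order of these numbers. The labels do not say that each library is a separate animal, so a p-value measures the spread between libraries, which may be partly technical. In bulk liver, fewer cells of a type and less RNA per cell cannot be told apart.

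Library totals ran from 5584587 to 9672708 counts, and the 92 genes together took 0.808% to 0.938% of them. Levels are CPM, counts per 1000000 of the TMM-scaled library total, as mean ± SD with n = 4. The marker list of hepatocytes, of which 5 of 6 genes were in the table, summed to 96600 to 131000 CPM per library. Kupffer cell and macrophage markers (6 of 6 present) summed to 225 to 317 CPM in hCYP2B6-Tg females and 226 to 376 CPM in Cyp2b-null females, against 175 to 213 CPM in hCYP2B6-Tg males and 156 to 225 CPM in Cyp2b-null males. The list for brown fat and muscle, tissues rich in mitochondria, summed to at most 0.807 CPM in any library, and Ckm, Myh7 and Pvalb were at 0.

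Per kilobase of exon, the most abundant row was Atp5b, the catalytic beta subunit of the ATP synthase, at a mean level of 590 CPM per kb over the 16 libraries. Cox4i1 followed at 416, Ndufa4 at 395, Cox6a1 at 388, Atp5g3 at 366 and Cox8a at 358 CPM per kb. Ndufa4 was first described as a complex I subunit, and its protein is now placed with complex IV. Complex I rows were lower as a rule, led by Ndufb9 at 243 and Ndufa6 at 198 CPM per kb. The lowest tested complex I row was Ndufab1, the mitochondrial acyl carrier protein, at 0.867 CPM per kb. Complex II was led by Sdha, the flavoprotein that oxidises succinate, at 196, with Sdhc lowest at 50.9 CPM per kb. In complex III the tested rows ran from Uqcrb at 16.1 to Uqcrh at 168 CPM per kb. Assembly factors of complex I were scarcer than most subunits, between 4.01 (Ndufaf5) and 19.6 CPM per kb (Ndufaf1).

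Where a subunit has a liver form and a form of heart, muscle or testis, the liver form carried nearly all counts. Cox6a1 had 26249 counts over the 16 libraries and Cox6a2, the heart and muscle form, had 4. Cox8a had 23347 counts, against 6 for Cox8b and 1 for Cox8c. Cox4i1 had 37691 counts and Cox4i2, the lung form, 5. Cox6b1 had 14634 counts and the testis form Cox6b2 had 8, while Cox7b had 12809 and Cox7b2 had 0. Cox7a2 had 9096 counts, against 90 for the heart and muscle form Cox7a1. The Atp5g genes all encode the same mature c subunit of the ATP synthase, and among them Atp5g3 had 31520 counts, Atp5g1 had 1333 and Atp5g2 had 64. Ndufa4l2, the hypoxia-induced relative of Ndufa4, had 135 counts against 29178 for Ndufa4.

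**Figure D1:**
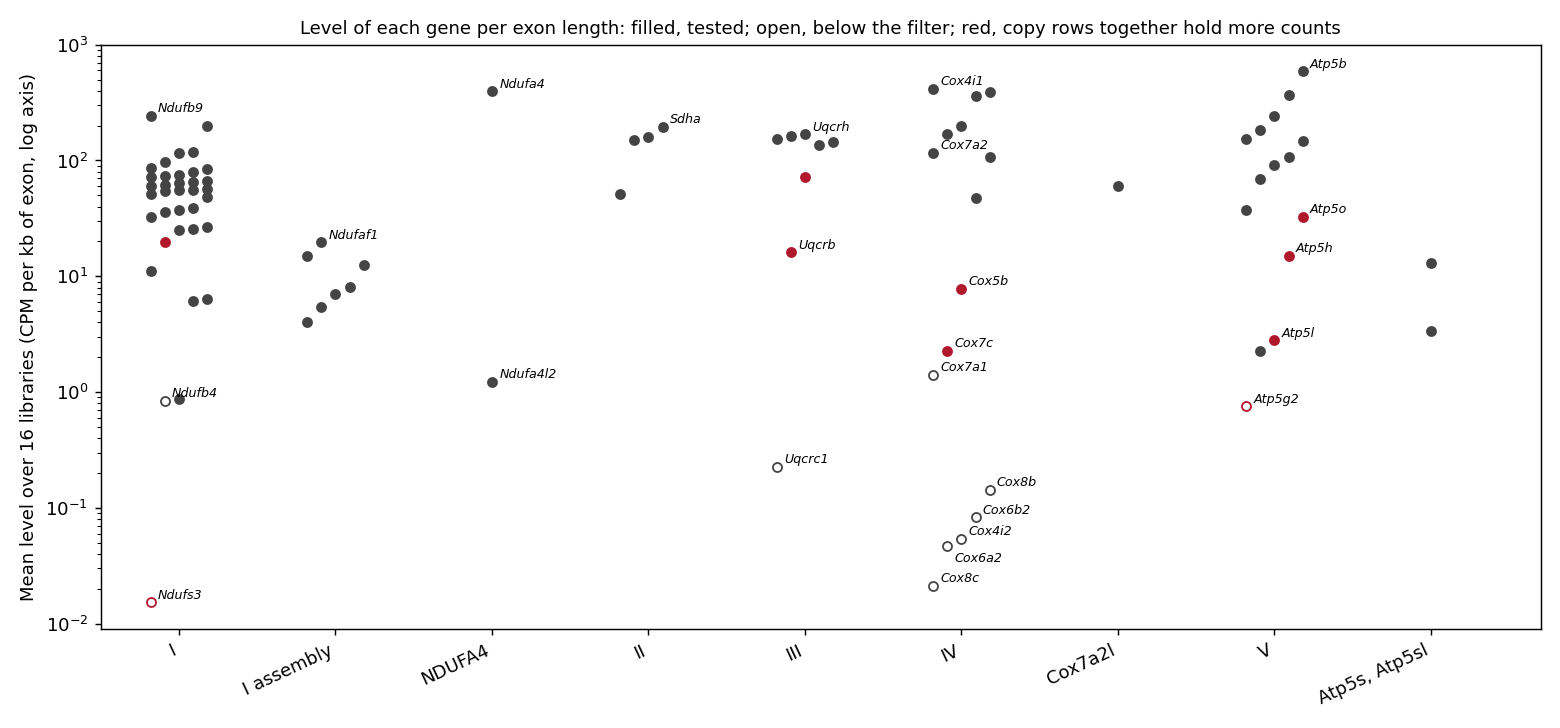
Mean level of each row over the 16 libraries in CPM per kb of exon (log axis), by complex. Filled points were tested, open points fell below the filter, and red marks the 10 genes whose copies elsewhere in the genome together held more counts; Cox7b2, with 0 counts, is not drawn. Atp5b is highest at 590 CPM per kb and Ndufs3 lowest of the drawn complex I rows at 0.0153 CPM per kb.

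Several subunits that a working complex cannot lack had almost no counts in their own row, while a near-identical copy of the gene elsewhere in the genome had many. Copies were searched among GENCODE M21 transcripts, at 95% identity or more over at least 100 bases and at least 1000000 bases away. Of the 92 genes, 37 had at least 1 copy of this identity and length at any distance. After the distance limit, and leaving out any gene with very many copies, 23 genes had 47 copies. Of these copies 32 had a row in the table. For 10 genes the copies' rows summed to more counts than the gene's own row. Ndufs3, a core subunit of complex I, had 2 counts over all 16 libraries, and its processed pseudogene Gm12251 had 6533. Cox7c had 303 counts and Gm12338 had 18763. Of the ATP synthase subunits, Atp5l (subunit g) had 183 counts and Gm10221 had 18747, and Atp5h (subunit d) had 1343 counts and Gm10250 had 16944. Cox5b had 852 counts and Gm11273 had 10192, and Uqcrb had 1014 against 9178 over 3 copies. Atp5o had 4352 counts and Gm5436 had 6967. No label says how the authors counted reads that map to several places, so these rows are uncertain as single genes.

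**Figure D2:**
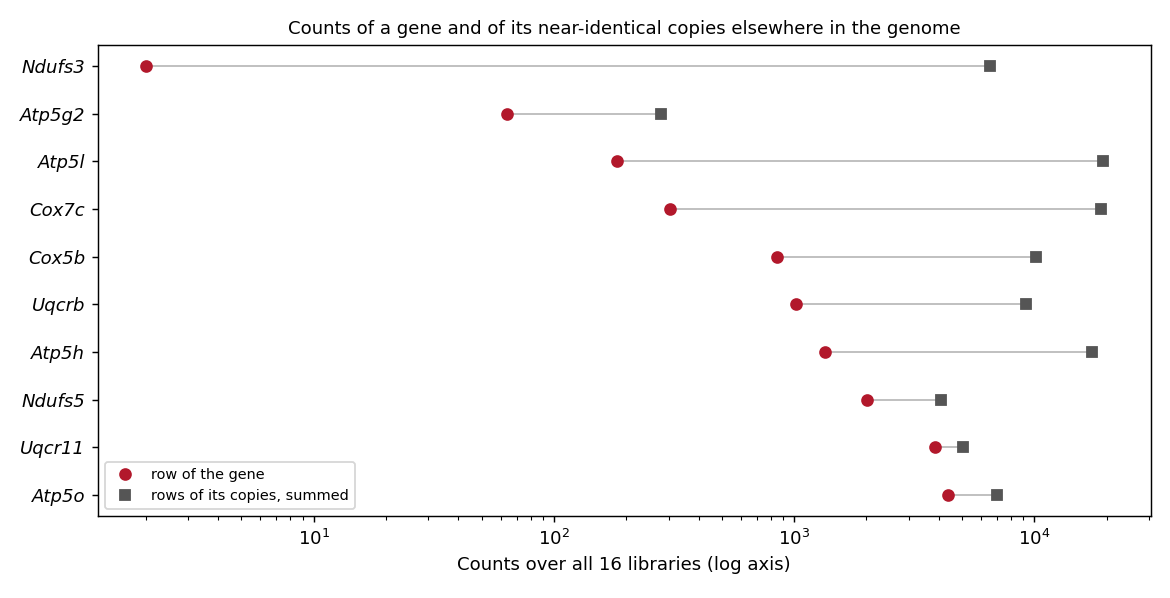
Counts over all 16 libraries (log axis) in the row of each of the 10 genes (red circles) and summed over the rows of its copies elsewhere in the genome (grey squares). Every grey square lies to the right of its circle, from 2 against 6533 counts for Ndufs3 to 4352 against 6967 for Atp5o.

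The Ndufs3 pair is shown because it had the widest ratio of counts. The lines give the first 120 coding bases of Ndufs3 (chr2:90894634-90904827, minus strand) and the aligned bases of Gm12251 (chr11:58392769-58393560, minus strand), both from GENCODE M21 on GRCm38, with the 4 differing bases in capitals.
Ndufs3: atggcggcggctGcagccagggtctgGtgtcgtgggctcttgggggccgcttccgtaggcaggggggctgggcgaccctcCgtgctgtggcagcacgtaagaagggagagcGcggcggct
Gm12251: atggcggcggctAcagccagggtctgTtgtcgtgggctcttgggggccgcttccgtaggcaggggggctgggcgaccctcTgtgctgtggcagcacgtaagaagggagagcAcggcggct
Over the whole coding sequence of 789 bases the pair differed at 11, an identity of 98.6%. For Cox7c (chr13:86044816-86046904, minus strand) and Gm12338 (chr11:75599763-75599954, minus strand), 116 of the 147 coding bases of the Cox7c transcript used could be aligned and none differed. A stretch of 90 bases that the Cox7c pair shares letter for letter is shown for contrast, with no capitals since nothing differs.
Cox7c and Gm12338: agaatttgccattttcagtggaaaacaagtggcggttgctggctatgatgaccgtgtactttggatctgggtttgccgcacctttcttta
Low rows were not confined to genes with a copy in the table. Uqcrc1, a core subunit of complex III, had 43 counts in all and no copy was found for it. Ndufb4, an accessory subunit of complex I, had 97 counts, and its copies have no row here.

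Summed over its rows, each complex had its highest mean level in hCYP2B6-Tg males. Complex I summed to 2405 ± 26.4 CPM in hCYP2B6-Tg males and 2281 ± 144 CPM in Cyp2b-null males, and to 2205 ± 146 CPM in hCYP2B6-Tg females and 2235 ± 183 CPM in Cyp2b-null females. Complex V summed to 3029 ± 55.7 CPM in hCYP2B6-Tg males and 2834 ± 69.8 CPM in Cyp2b-null males, and to 2793 ± 169 CPM in hCYP2B6-Tg females and 2790 ± 137 CPM in Cyp2b-null females. The complex V sums of hCYP2B6-Tg males (3112, 3010, 3000 and 2993 CPM) all lay above those of Cyp2b-null males (2733, 2846, 2865 and 2892 CPM), whereas the female groups overlapped. Per plain library total, without TMM, the male groups overlapped too, at 3071, 2935, 2980 and 2884 CPM in hCYP2B6-Tg and 2668, 2853, 2861 and 2930 CPM in Cyp2b-null livers. The largest rows in the complex V sum were Atp5b and Atp5a1. In males they averaged 1190 and 576 CPM in hCYP2B6-Tg and 1110 and 531 CPM in Cyp2b-null livers. The sum is thus not independent of these genes. For complex I the ranges of the male groups overlapped, at 2366 to 2424 CPM in hCYP2B6-Tg and 2088 to 2407 CPM in Cyp2b-null males.

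Complex II summed to 1169 ± 38.3 CPM in hCYP2B6-Tg males and 1108 ± 20.1 CPM in Cyp2b-null males, and complex III to 988 ± 17.9 CPM in hCYP2B6-Tg males and 961 ± 55.1 CPM in Cyp2b-null males. Complex IV summed to 1287 ± 30.3 CPM in hCYP2B6-Tg males and 1219 ± 70.1 CPM in Cyp2b-null males. In females the sums of complexes II, III and IV were 1048, 896 and 1186 CPM in hCYP2B6-Tg and 1060, 913 and 1172 CPM in Cyp2b-null livers. No test was made on a sum, and each sum weighs its most abundant rows most. With the rows of the copies added, complex V came to 3548 ± 53.6 CPM in hCYP2B6-Tg males and 3307 ± 79.7 CPM in Cyp2b-null males, and to 3270 ± 207 CPM in hCYP2B6-Tg females and 3284 ± 169 CPM in Cyp2b-null females.

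**Figure D3:**
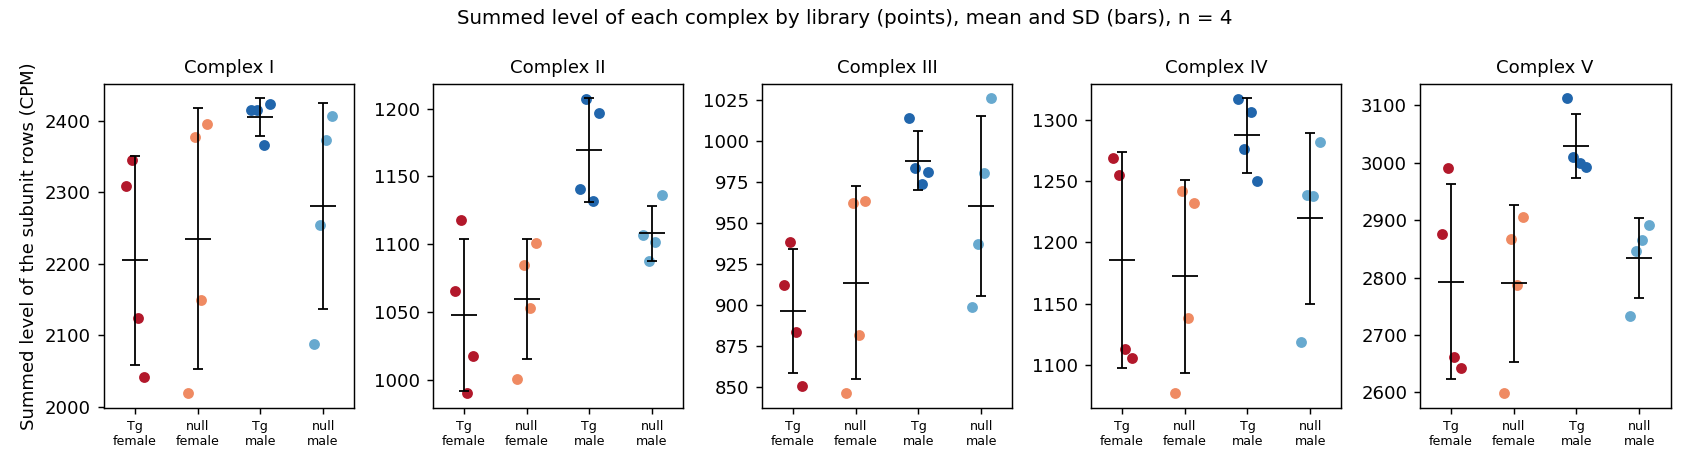
Summed level (CPM) of the subunit rows of complexes I to V in each library (points) for hCYP2B6-Tg (Tg) and Cyp2b-null (null) females and males, with mean and SD (bars, n = 4). The axes do not start at 0. In complex V the 4 hCYP2B6-Tg male libraries lie at 2993 to 3112 CPM, above the 4 Cyp2b-null male libraries at 2733 to 2892 CPM, a separation that plain library totals do not keep (2884 to 3071 CPM against 2668 to 2930 CPM).

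The comparison of hCYP2B6-Tg with Cyp2b-null livers asks what the human enzyme changes in liver transcripts on a fat-rich diet. No respiratory chain or ATP synthase gene passed the threshold for genotype, an adjusted p under 0.05 in edgeR's quasi-likelihood test with Benjamini-Hochberg adjustment over 13470 genes. This held in females (0 of 81, against 0% of all tested genes), in males (0 of 81, against 0.111%), over both sexes (0 of 81, against 0.0148%) and for the difference of the genotype effect between the sexes (0 of 81, against 0.0445%). DESeq2 and limma voom also called 0 of the 81 genes in each of these comparisons. At an unadjusted p under 0.05 there were 0 genes in females (all tested genes 7.59%), 4 in males (7.17%), 0 over both sexes (6.94%) and 1 for the difference between the sexes (7.70%).

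Positive values outnumbered negative ones in males, and in females they did not. In males 63 of the 81 genes had a positive log2 fold change (hCYP2B6-Tg over Cyp2b-null), with a median of 0.06, whereas 49% of all tested genes were positive, with a median of 0.00. In females 36 of 81 were positive, with a median of -0.01, against 50.4% of all tested genes. In males all 4 complex II genes and all 7 tested complex III genes were positive, as were 9 of 10 complex IV genes, 11 of 14 complex V genes and 25 of 34 complex I genes. The medians in males were 0.05 for complex I, 0.10 for complex II, 0.05 for complex III, 0.06 for complex IV and 0.10 for complex V. With libraries scaled by their totals alone, the male median was 0.03 with 55 of 81 positive, and the median of all genes shifted by -0.03. The genes were chosen with earlier results known and are not independent of each other, so no p is given for these shares. The 5 hepatocyte markers in the table summed to 104000 to 109000 CPM in hCYP2B6-Tg males and 96600 to 103000 CPM in Cyp2b-null males. Their part in the male values was not tested.

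In males 7 of the 81 genes had all 4 hCYP2B6-Tg libraries above all 4 Cyp2b-null libraries (8.64%, against 2.40% of all tested genes) and 0 had the reverse (2.37% of all tested genes). Per plain library total only Atp5o, Ndufa5 and Ndufv2 of these were apart (3.70%, against 1.73% of all tested genes), and 0 had the reverse (3.08%). The 7 were the ATP synthase subunits Atp5a1 (alpha), Atp5b (beta), Atp5h (d) and Atp5o (the stalk protein OSCP) and the complex I subunits Ndufa5, Ndufs4 and Ndufv2. The main copy of Atp5h, Gm10250, overlapped between the male groups, at 135 to 160 CPM in hCYP2B6-Tg and 129 to 142 CPM in Cyp2b-null livers. Gm5436, the copy of Atp5o, overlapped too, at 52.7 to 68.8 CPM in hCYP2B6-Tg and 49.2 to 56 CPM in Cyp2b-null males. With copies summed, the log2 fold change in males was 0.125 for Atp5h (0.253 from its own row) and 0.243 for Atp5o (0.266 from its own row). Atp5o had the smallest p. Its levels in males were 36.5, 40.5, 35.3 and 34.9 CPM in hCYP2B6-Tg, against 30.2, 31.1, 30.2 and 30.8 CPM in Cyp2b-null livers. The male groups thus lay apart, with a log2 fold change of 0.27 ± 0.11 (SE, unadjusted p = 0.0262, adjusted p = 0.607 in edgeR's quasi-likelihood test). In females Atp5o had 45.9, 42.2, 31.5 and 35.2 CPM in hCYP2B6-Tg and 43.5, 39.9, 34.9 and 43.7 CPM in Cyp2b-null livers, which overlapped. The male Atp5o genotype effect minus the female one was 0.33 ± 0.16 (adjusted p = 0.635).

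Atp5b had 1200, 1190, 1180 and 1170 CPM in hCYP2B6-Tg males, against 1090, 1100, 1070 and 1150 CPM in Cyp2b-null males. These groups do not overlap, but per plain library total they do (1130 to 1190 CPM in hCYP2B6-Tg and 1060 to 1170 CPM in Cyp2b-null males), and the log2 fold change of 0.10 ± 0.07 did not pass (adjusted p = 0.801). Ndufs4, an accessory subunit whose loss causes encephalopathy in mice, had 67.5, 66.8, 70.9 and 79.1 CPM in hCYP2B6-Tg males, against 49.3, 62.9, 65.2 and 66.8 CPM in Cyp2b-null males. Its highest Cyp2b-null value and lowest hCYP2B6-Tg value are nearly the same, the groups overlap per plain library total, and the log2 fold change was 0.22 ± 0.10 (adjusted p = 0.662).

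The other genes nearest to the threshold in males also stayed short of it. In complex I, Ndufs5 had a log2 fold change of 0.27 and Ndufb10 of 0.20 (adjusted p = 0.697 and 0.702). Among assembly factors, Ndufaf6 was at 0.34, Ndufaf3 at 0.27 and Ndufaf7 at -0.20. Complex II had Sdhd at 0.12, Sdhb at 0.12 and Sdhc at 0.08, and complex III had Uqcrb at 0.36, Uqcr11 at 0.19 and Uqcrc2 at 0.05. In complex IV, Cox6b1 was at 0.18, Cox8a at 0.12 and Cox5b at 0.22, and Ndufa4 was at 0.13. In complex V, Atp5a1 was at 0.12 and Atp5j2 at 0.16. Adjusted p-values of these genes lay between 0.694 and 0.94. The lowest value in males was Atp5l at -0.43 ± 0.41, from a row of 183 counts. With the copies' counts summed, Atp5l turned positive at 0.17 ± 0.09 (adjusted p = 0.723), and Uqcrb, Uqcr11 and Cox5b were at 0.18, 0.09 and 0.11.

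Over both sexes the smallest p among the 81 genes belonged to the assembly factors Ndufaf4 (log2 fold change 0.22 ± 0.11, adjusted p = 0.732) and Ndufaf7 (-0.21 ± 0.11, adjusted p = 0.734). Within the complexes the leading genes were Ndufs4 at 0.13, Sdha at 0.03, Uqcrq at -0.06, Cox8a at 0.07 and Atp5g1 at 0.23, with adjusted p-values between 0.754 and 0.947. The supercomplex factor Cox7a2l, which C57BL/6 mice carry in a shortened form, was at 0.01 ± 0.06. The 95% interval of the Atp5b effect over both sexes ran from -0.05 to 0.14 on the log2 scale, and that of Sdha from -0.07 to 0.13.

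**Figure D4:**
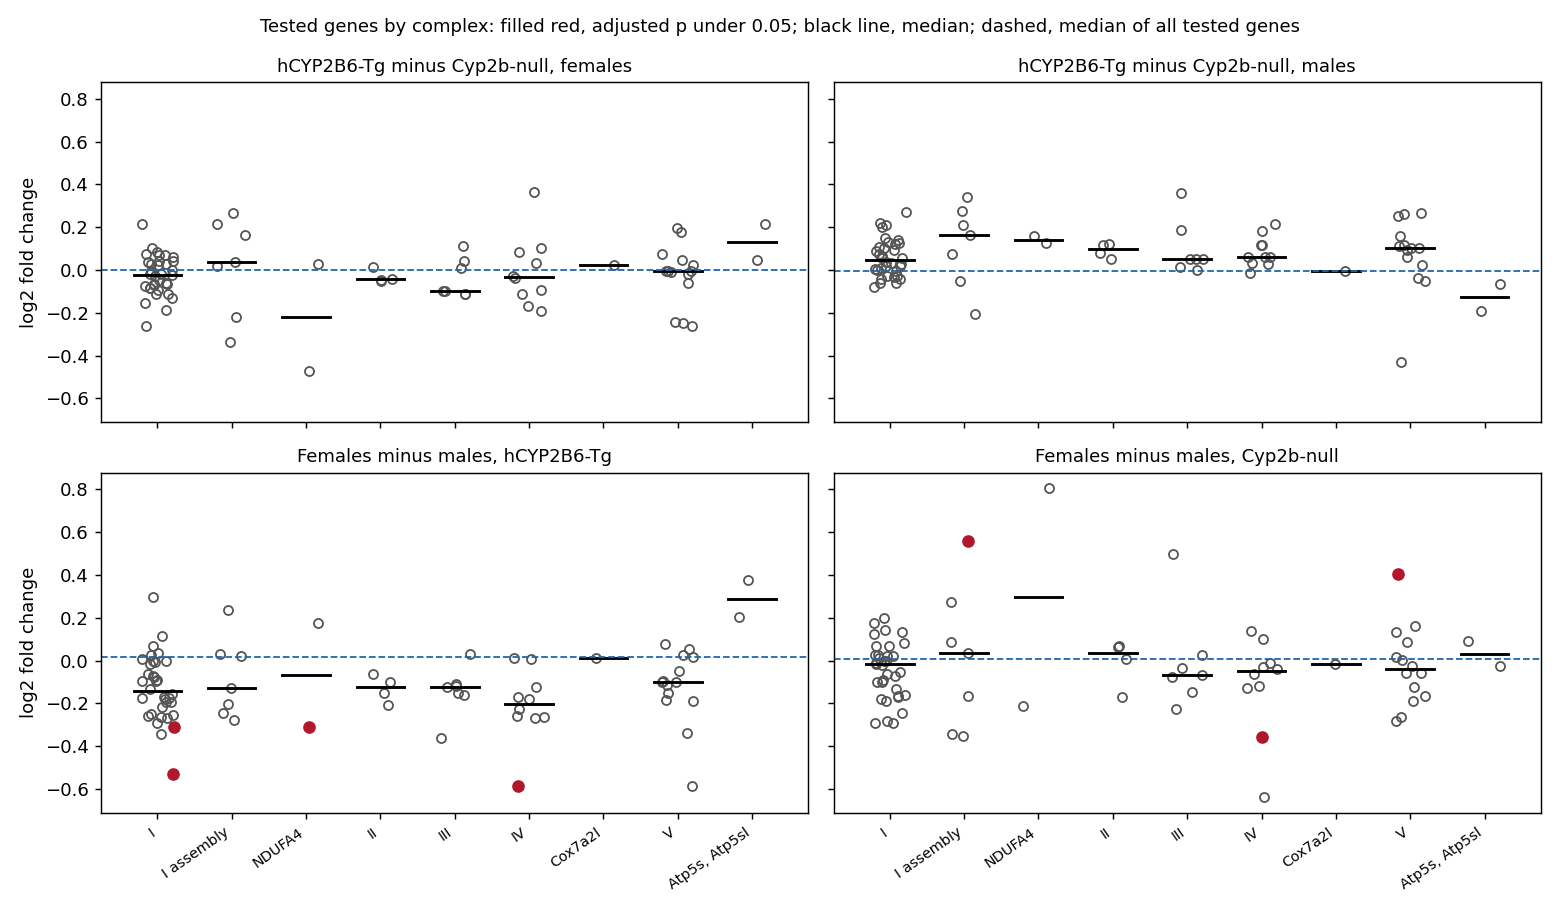
Log2 fold change of the 81 tested genes by complex in 4 comparisons: hCYP2B6-Tg over Cyp2b-null in females and in males, and females over males in hCYP2B6-Tg and in Cyp2b-null livers. Filled red points passed an adjusted p of 0.05, black lines are medians by complex and the dashed line is the median of all tested genes. No point is red for genotype, 4 are red for sex in hCYP2B6-Tg livers, all below 0, and 3 in Cyp2b-null livers.

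Sex, unlike genotype, gave calls among these genes. Over both genotypes, 6 genes were lower in females, among them Cox7a2, Ndufa4, Ndufs1, Ndufb3 and Sdha, and 2 were higher (Ndufaf6 and Atp5o). That is 9.88% of the 81 genes, against 17.0% of all tested genes (8.64% lower and 8.34% higher). In hCYP2B6-Tg livers 4 genes were lower and 0 higher (4.94%, against 10.3% of all tested genes, 5.56% lower and 4.69% higher), and in Cyp2b-null livers 1 was lower and 2 higher (3.70%, against 7.52%, 3.95% lower and 3.57% higher). Called genes were thus a smaller share here than in the whole table in each of the 3 comparisons.

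Cox7a2, the liver form of a small complex IV subunit, showed the lowest p. Its levels in females were 55.1, 65.8, 61.9 and 65 CPM in hCYP2B6-Tg livers and 64.4, 73, 54 and 76.3 CPM in Cyp2b-null livers. Males had 92.1, 92.5, 88.7 and 98.8 CPM in hCYP2B6-Tg livers and 72.8, 79.5, 99.4 and 90.4 CPM in Cyp2b-null livers. Within hCYP2B6-Tg livers every female lay below every male, and within Cyp2b-null livers the sexes overlapped. The female to male ratio was 0.722 over both genotypes (log2 fold change -0.47 ± 0.08, adjusted p = 7.66e-05 in edgeR's quasi-likelihood test). It was 0.667 in hCYP2B6-Tg livers (adjusted p = 0.000627) and 0.782 in Cyp2b-null livers (adjusted p = 0.0426), where it was lost on leaving out 1 library in 9 of 16 cases. The male genotype effect minus the female one was 0.23 ± 0.15 and did not pass (adjusted p = 0.759). Cox7a2 overlaps Tmem30a and Gm51685 in the annotation, and no label says whether reads were counted by strand.

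Ndufa4 averaged 226 ± 22.5 CPM in hCYP2B6-Tg females and 222 ± 21 CPM in Cyp2b-null females, against 281 ± 9.72 CPM in hCYP2B6-Tg males and 257 ± 18.7 CPM in Cyp2b-null males. Its female to male ratio was 0.834 (log2 fold change -0.26 ± 0.06, adjusted p = 0.00323). In hCYP2B6-Tg livers the female values of 255, 228, 220 and 201 CPM lay below the male values of 277, 288, 288 and 268 CPM. In Cyp2b-null livers, at 198, 244, 211 and 235 CPM in females and 234, 254, 261 and 280 CPM in males, the sexes overlapped and the gene did not pass (adjusted p = 0.146).

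In complex I, Ndufs1, the largest iron-sulfur subunit of the arm that takes electrons from NADH, had 123, 143, 119 and 117 CPM in hCYP2B6-Tg females and 119, 123, 132 and 127 CPM in Cyp2b-null females. Males had 144, 162, 167 and 151 CPM in hCYP2B6-Tg and 132, 139, 139 and 153 CPM in Cyp2b-null livers. The sexes did not overlap in hCYP2B6-Tg livers and met at 132 CPM in Cyp2b-null livers. The log2 fold change over both genotypes was -0.24 ± 0.06 (adjusted p = 0.00556, and 0.054 without Cyp2b-null females 1 and 3 and hCYP2B6-Tg male 4). Ndufs1 overlaps Ino80dos in the annotation. Ndufb3, a small accessory subunit of the membrane arm, averaged 22.2 ± 2.21 CPM in hCYP2B6-Tg females and 24.5 ± 6.15 CPM in Cyp2b-null females, against 32 ± 1.22 CPM in hCYP2B6-Tg males and 30 ± 4.13 CPM in Cyp2b-null males. Its log2 fold change was -0.41 ± 0.10 over both genotypes (adjusted p = 0.00565) and -0.53 ± 0.14 in hCYP2B6-Tg livers (adjusted p = 0.0163).

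Sdha was the only one of the 8 genes in which all 8 female libraries lay below all 8 male libraries over both genotypes, an arrangement that 2.60% of all tested genes also had. Female levels were 530, 582, 507 and 514 CPM in hCYP2B6-Tg and 533, 507, 556 and 517 CPM in Cyp2b-null livers. Male levels were 587, 632, 607 and 634 CPM in hCYP2B6-Tg and 607, 583, 586 and 598 CPM in Cyp2b-null livers. The gap between the highest female and the lowest male was thus 582 against 583 CPM. The change was small at a ratio of 0.879 (log2 fold change -0.19 ± 0.05, adjusted p = 0.00904), and Sdhb, Sdhc and Sdhd did not pass. Sdhb was at -0.07 ± 0.06 and Sdhd at -0.01 ± 0.06.

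The genes higher in females were an assembly factor and the stalk protein. Ndufaf6, needed for complex I assembly, had 13.4, 13.5, 17.1 and 17.4 CPM in hCYP2B6-Tg females and 12.8, 14.7, 16.5 and 16.1 CPM in Cyp2b-null females. Males had 13.4, 14, 12 and 12.7 CPM in hCYP2B6-Tg and 13.9, 11, 7.71 and 8.92 CPM in Cyp2b-null livers. The ratio over both genotypes was 1.32 (log2 fold change 0.40 ± 0.11, adjusted p = 0.0145), and the sexes overlapped in both genotypes. Atp5o was higher by 0.24 ± 0.08 over both genotypes (adjusted p = 0.0356). In Cyp2b-null livers it was higher by 0.41 ± 0.11 (adjusted p = 0.0248), and every female exceeded every male. Atp5o was the 1 tested respiratory chain or ATP synthase gene so arranged there (1.23%, against 5.66% of all tested genes). The 2 genes with the reverse arrangement were Cox7c and Sdha (2.47%, against 6.64% of all tested genes). Per plain library total only Sdha kept it (1.23%, against 5.93%), and Ndufs7 joined Atp5o in the other direction (2.47%, against 6.22%). With its copies summed, the Cox7c value in Cyp2b-null livers was -0.075 (adjusted p = 0.744), against -0.638 from its own row. Leaving out 1 library ended the Atp5o call over both genotypes in 11 of 16 cases. In hCYP2B6-Tg livers Atp5o was at 0.08 ± 0.11 (adjusted p = 0.739). When the counts of Atp5o and its pseudogene were summed, the value over both genotypes was 0.13 ± 0.06 (adjusted p = 0.156) and that in Cyp2b-null livers 0.27 ± 0.09 (adjusted p = 0.0756), so neither passed.

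**Figure D5:**
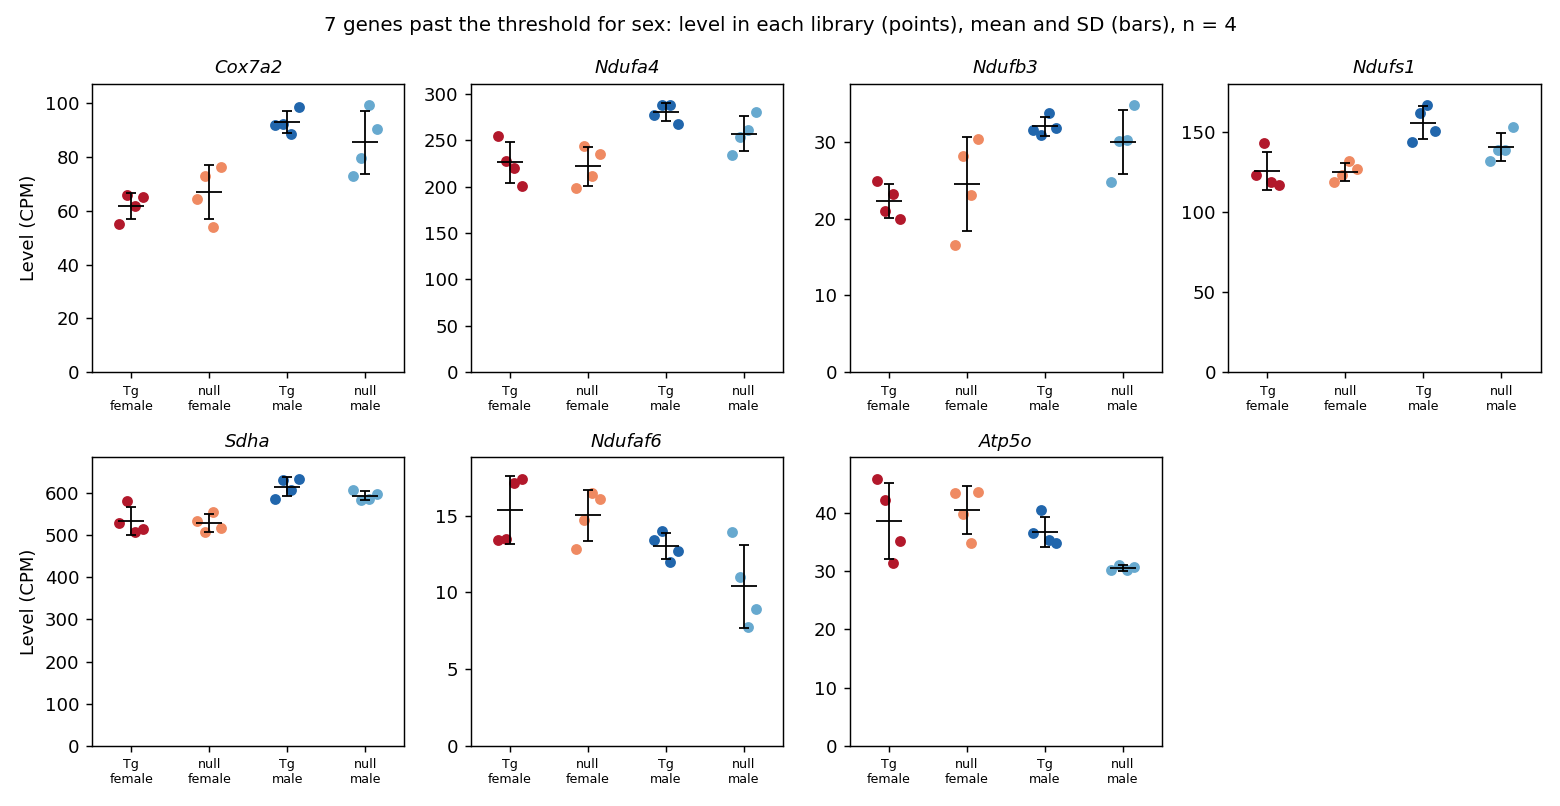
Level (CPM, axes from 0) of 7 genes past the threshold for sex in each library (points) of hCYP2B6-Tg (Tg) and Cyp2b-null (null) females and males, with mean and SD (bars, n = 4). Female points lie lower as a rule in the first 5 panels, with Cox7a2 at 54 to 76.3 CPM in females and 72.8 to 99.4 CPM in males, and higher as a rule for Ndufaf6 and Atp5o.

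Over all 81 genes, these 8 included, the directions were mostly downward in females. Over both genotypes 61 of the 81 genes were negative, with a median of -0.09, against a median of 0.01 over all tested genes, of which 51.8% were positive. With libraries scaled by their totals alone, that median was -0.06 with 27 of 81 positive, and the median of all genes shifted by 0.03. In hCYP2B6-Tg livers 61 of 81 were negative with a median of -0.13 (all tested genes 0.02), and in Cyp2b-null livers 49 of 81 with a median of -0.03 (all tested genes 0.01). The hCYP2B6-Tg sex contrast had 11 genes with all females below all males (13.6%, against 8.20% of all tested genes), among them Atp5a1, Cox5a, Ndufa5, Ndufb2, Uqcrc2 and Uqcrfs1 beside Sdha and the 4 that passed. Per plain library total there were 8 such genes (9.88%, against 6.56% of all tested genes). Ndufa7, an accessory subunit of complex I, was the 1 gene with the reverse arrangement (7.41% of all tested genes), at 19.9, 17.7, 22.4 and 18.3 CPM in hCYP2B6-Tg females and 17.6, 14.3, 16.1 and 15.6 CPM in hCYP2B6-Tg males (adjusted p = 0.114).

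By complex, 25 of 34 complex I genes, 6 of 7 complex III genes, 9 of 10 complex IV genes and 11 of 14 complex V genes were negative over both genotypes. Complex III had no call, with Uqcr10 at -0.18 ± 0.07 (adjusted p = 0.0653) and the Rieske iron-sulfur protein Uqcrfs1 at -0.15 ± 0.06 (adjusted p = 0.0685). In complex IV, Cox5a was at -0.18 ± 0.06 (adjusted p = 0.0609) and Cox7c, a row of 303 counts, at -0.45 ± 0.21 (adjusted p = 0.153), or -0.09 ± 0.07 with its copies summed (adjusted p = 0.405). In complex V, Atp5k was at -0.43 ± 0.16 (adjusted p = 0.0663) and Atp5a1 at -0.12 ± 0.05 (adjusted p = 0.0804). Among assembly factors Ndufaf4 was at -0.30 ± 0.11 and Ndufaf1 at -0.19 ± 0.07 (adjusted p = 0.0635 and 0.0842). Over the same libraries, summed fat cell markers (6 of 6 present) lay at 3.12 to 8.75 CPM in females and 8.4 to 43.8 CPM in males, and the macrophage sums given above had ranges of 225 to 376 CPM in females and 156 to 225 CPM in males. The 5 hepatocyte markers in the table summed to 104000 to 124000 CPM in hCYP2B6-Tg females and 105000 to 131000 CPM in Cyp2b-null females. Males had 104000 to 109000 CPM in hCYP2B6-Tg and 96600 to 103000 CPM in Cyp2b-null livers. The part of these cell types in the sex differences was not tested.

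The rows below the filter were read as counts. Cox7a1 had 0.403, 0.349, 0.151 and 0.512 CPM in hCYP2B6-Tg females, against 0.527, 0.935, 1.15 and 0.834 CPM in Cyp2b-null females, or 11 against 27 counts. These groups did not overlap, and the exact two-sided permutation p was 0.0286, the smallest that 4 against 4 libraries allow, or 0.214 after Benjamini-Hochberg adjustment over 15 such tests. Ndufb4 had 13 counts in hCYP2B6-Tg females and 41 in Cyp2b-null females, with the same exact and adjusted p. In males Cox7a1 had 20 counts in hCYP2B6-Tg and 32 in Cyp2b-null livers (exact p = 0.286), and Ndufb4 had 26 and 17 (exact p = 0.429). These levels are near that of 3 counts in a library, 0.313 to 0.542 CPM, and no difference passed the correction.

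Promoters of the genes were searched for the motifs of factors known to act on nuclear genes of the mitochondrion, over 250 bases before to 50 bases after the start site in RefSeq on GRCm38.p6. Promoters were available for 76 of the 92 genes and for 27025 genes in all. The NRF1 motif was GCGCA and GCGC separated by 1 base of any kind, read on both strands like the other motifs. It was present in 19 of the 76 (25%), against 5.19% of the 27025 genes. The 27025 genes were not limited to those tested for expression or matched for base composition, so the shares are descriptive. The YY1 motif AAGATGGC was present in 14.5% against 3.19%, the ERR motif TCAAGGTCA in 2.63% against 0.466% and the ETS motif CCGGAAGT in 6.58% against 4.31%. The STAT5 motif TTCNNNGAA, included because STAT5 carries the sex-dependent growth hormone signal in liver, was present in 6.58% against 9.55%. 3 promoters of genes that differed by sex are shown, with motif matches in capitals. The Sdha promoter (chr13:74350191-74350490, minus strand) holds 3 NRF1 matches.
Sdha: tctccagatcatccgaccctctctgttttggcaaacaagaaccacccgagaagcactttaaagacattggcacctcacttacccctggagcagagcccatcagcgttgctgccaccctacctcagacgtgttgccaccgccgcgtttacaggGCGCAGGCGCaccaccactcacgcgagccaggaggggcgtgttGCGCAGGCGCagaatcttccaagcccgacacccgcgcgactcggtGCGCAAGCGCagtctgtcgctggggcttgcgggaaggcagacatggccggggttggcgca
The Atp5o promoter (chr16:91931581-91931880, minus strand) holds 1 STAT5 match followed by 1 NRF1 match.
Atp5o: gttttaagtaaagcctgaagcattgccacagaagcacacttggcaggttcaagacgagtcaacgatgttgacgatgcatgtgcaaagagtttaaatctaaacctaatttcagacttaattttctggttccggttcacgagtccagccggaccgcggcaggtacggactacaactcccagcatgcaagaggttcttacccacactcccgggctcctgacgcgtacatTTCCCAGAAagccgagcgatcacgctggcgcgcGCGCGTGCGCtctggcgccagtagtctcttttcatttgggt
The Cox7a2 promoter (chr9:79759804-79760103, minus strand) holds none of the 5 motifs.
Cox7a2: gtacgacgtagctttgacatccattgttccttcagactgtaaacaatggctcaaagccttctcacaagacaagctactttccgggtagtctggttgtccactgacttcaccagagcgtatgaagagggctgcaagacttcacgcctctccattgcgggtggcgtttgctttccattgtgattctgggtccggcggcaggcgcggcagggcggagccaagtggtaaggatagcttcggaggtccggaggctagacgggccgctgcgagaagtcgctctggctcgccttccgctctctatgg
A match describes the letters only. NRF1 matches are present both in the promoter of Sdha, lower in females, and in that of Atp5o, higher in females, and absent from that of Cox7a2, lower in females. The promoters of Ndufa4 and Ndufb3, also lower in females and not shown, hold none of the 5 motifs. For Ndufs1 and Ndufaf6 no promoter was available. Any part of these motifs in the sex differences was not tested.

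Of 7 lists of genes outside the rule, 5 of the respiratory chain and mitochondrial metabolism and 2 of mitochondrial and cytosolic ribosomal proteins, each had 0 calls for genotype in edgeR's test in males, in females and over both sexes. At an unadjusted p under 0.05 in males, against 7.17% of all tested genes, there were 5 of 18 citrate cycle enzymes (27.8%), 2 of 12 carriers and further subunits (16.7%), 2 of 17 outer membrane and carrier proteins (11.8%) and 2 of 20 regulators (10%). The same measure gave 2 of 43 assembly factors (4.65%), 2 of 74 mitochondrial ribosomal proteins (2.70%) and 2 of 53 cytosolic ribosomal proteins (3.77%). The 13 subunits encoded in mitochondrial DNA had no row under the 26 names looked up, so they were not analysed here. The 18 enzymes of the citrate cycle and the pyruvate complex, which supply NADH and succinate, had 17 of 18 positive values in males, with a median log2 fold change of 0.12. In females 14 of 18 were positive, with a median of 0.04. At an unadjusted p under 0.05 there were 4 of 18 in females (22.2%, against 7.59% of all tested genes), 2 higher and 2 lower. Over both sexes there were 6 of 18 (33.3%, against 6.94%), all higher. The largest genotype value over both sexes among the electron carriers was Coq10b, a ubiquinone-binding protein, at 0.53 ± 0.15 (adjusted p = 0.422). Its levels were 40.2 ± 8.01 CPM in hCYP2B6-Tg males and 24.7 ± 5.84 CPM in Cyp2b-null males, and 24.5 ± 2.99 CPM in hCYP2B6-Tg females and 19.1 ± 6.48 CPM in Cyp2b-null females. Cycs, which encodes cytochrome c, was at 0.31 ± 0.16 (adjusted p = 0.734).

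For sex, over both genotypes, 5 of 12 tested carriers and further subunits passed (41.7%, against 17.0% of all tested genes). Cyc1, the cytochrome c1 of complex III, and Coq10b were lower in females, at -0.19 and -0.55 on the log2 scale. Atpif1, the inhibitor of the ATP synthase, was higher at 0.46 ± 0.11 (adjusted p = 0.00396), as were Etfb and the proton-driven transhydrogenase Nnt (0.18 and 0.22). Of 43 tested assembly factors outside the rule, 3 were lower and 1 was higher (9.30%). Cox19, a copper-handling factor of complex IV, averaged 19 ± 1.31 CPM in hCYP2B6-Tg females and 21.5 ± 0.333 CPM in Cyp2b-null females, against 30.5 ± 2.19 CPM in hCYP2B6-Tg males and 30.2 ± 3.19 CPM in Cyp2b-null males. Its log2 fold change of -0.58 ± 0.07 (adjusted p = 2.12e-06) was larger in size than that of any of the 8 called genes above over both genotypes. Higd1a and Foxred1 were also lower (-0.37 and -0.25), and Acad9 was higher (0.27).

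Of 20 tested regulators of mitochondrial biogenesis, Esrrg and the coactivator Ppargc1a were higher in females (0.79 ± 0.19 and 0.52 ± 0.15, adjusted p = 0.00413 and 0.0195) and Sirt3 was lower (-0.24), together 15% against 17.0% of all tested genes. Of 18 citrate cycle and matrix enzymes, Idh2 was higher (0.55 ± 0.07, adjusted p = 1.38e-06) and Pdha1, Pdhb, Pcx and Fh1 were lower (-0.36, -0.28, -0.27 and -0.27), together 27.8%. Ucp2 was the 1 call among 17 tested outer membrane and carrier proteins, higher at 0.51 ± 0.10 (5.88%). Among 74 mitochondrial ribosomal proteins 3 were lower and 1 higher (5.41%), and among 53 cytosolic ribosomal proteins 2 were lower and 2 higher (7.55%), both below the 17.0% of all tested genes. The cytosolic list was measured less precisely, with a median standard error of 0.176, against 0.118 over all tested genes. The part of this in its lower share was not tested.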

How the data were processed

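Liver RNA of 16 libraries was analysed from whole-number counts per gene as deposited by the authors. Per the submitters' processing notes, FastQC, Trimmomatic, GSNAP, Subread and edgeR were used, and GRCm38.p6 is the genome build. Tool versions, strandedness and multi-mapping settings are not stated there. Groups follow genotype and sex in the labels.

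Rows were filtered with filterByExpr (13470 of 41585 kept) and scaled by TMM. All 16 libraries were fitted in 4 groups with edgeR's quasi-likelihood F test (robust, two-sided, Benjamini-Hochberg over the 13470 genes, threshold 0.05). Errors of log2 fold changes are standard errors. Contrasts were hCYP2B6-Tg minus Cyp2b-null and females minus males. Rows below the filter with at least 20 counts in the libraries compared had exact permutation tests. The genes and lists were chosen with earlier results of these data known. Genes named were those past the threshold, the 3 smallest p-values per complex in 3 contrasts, isoform pairs, the highest and lowest row per complex, and list members past the threshold, mostly restricted to the first of each complex for genotype over both sexes. One gene past the threshold is not reported here. Genes named for lying apart between groups were chosen after their values were seen. Depth limits precision: 3 counts are 0.313 to 0.542 CPM, counting error only. Alternatives were other scalings, filters, tools, ribosomal RNA rows removed, 8 libraries only, a replicate block, each library left out, and, added after seeing the data, copies summed, 3 libraries left out, and separation of groups under other scalings. The fit was tested on simulated data. Copies were searched with BLAST 2.17.0. Fits used edgeR 4.0.16, DESeq2 1.42.0 and limma 3.58.1 in R 4.3.3.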

Additional observations from a re-analysis of the deposited data

Results flagged for a closer look

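Of 52 sets of 4 libraries (8 genes past a threshold and 5 complex sums, in 4 groups each), 2 had a library far from the other 3, and chance alone gives about 1 such set in 20. In hCYP2B6-Tg males the complex I sum was 2366 CPM in library 4, against 2415 to 2424 CPM in the other 3 libraries. In hCYP2B6-Tg males the complex V sum was 3112 CPM in library 2, against 2993 to 3010 CPM in the other 3. Both groups were tightly packed, so each gap is small in CPM.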

How the results depend on the processing

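No gene of the 92 passed for genotype in females, in males, over both sexes or for the difference between the sexes under any of 12 or 13 other settings or any of 16 omissions of 1 library, so 0 calls were lost or gained there. The male median of the genotype effect ran from 0.03 to 0.08 over the settings and from 0.04 to 0.10 over the omissions, and the female median from -0.05 to 0.02 over the omissions. The number of genes called for sex in hCYP2B6-Tg livers (4) was 2 with the replicate block and ran from 1 to 5 over the omissions. In Cyp2b-null livers (3) it was 1 with only the 8 libraries compared, 1 without Cyp2b-null females 1 and 3 and hCYP2B6-Tg male 4, and 0 to 3 over the omissions. Over both genotypes (8) it was 5 without those 3 libraries and 6 to 14 over the omissions, and DESeq2 called 12. Under the replicate block it was 7. Same-numbered libraries did not deviate together, with correlations from -0.107 to 0.122 and 1 of 12 above 0.1, so the numbers were not taken as pairs.

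In hCYP2B6-Tg livers Ndufs1 lost its call on omitting female 4 or 5 or male 3 or 4, Ndufa4 on omitting female 4 or 5 or male 3, and Ndufb3 on omitting female 2 or 5 (adjusted p up to 0.0576, 0.0813 and 0.0607). In Cyp2b-null livers Ndufaf6 lost its call in 5 and Atp5o in 6 of 16 omissions. Over both genotypes Cox7a2, Ndufa4, Ndufs1, Ndufb3, Sdha and Ndufaf6 passed in all 16. With copies summed, Ndufs5 passed for sex in hCYP2B6-Tg livers (-0.27, adjusted p = 0.0406). By plain library totals complex I summed to 2356 CPM in hCYP2B6-Tg and 2277 CPM in Cyp2b-null males, complex III to 968.1 and 958.9 CPM, and complex V to 2968 and 2828 CPM, and the genes apart between the male groups were 3, not 7 (7 with RLE scaling). The cause of these changes was not tested. Depth limits the 11 rows below the filter, and counting error on rows such as Ndufs3 leaves no fold to read.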
